A study of Homo sapiens with 40 samples.

Results

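Polysomal RNA from HEK293 cells, an established human embryonic kidney line, was compared between cells that received siRNA against CNOT1 and cells that received control siRNA. The polysomal libraries were pooled from fractions 6 to 11 of sucrose gradients, which hold mRNAs bound by several ribosomes. The comparison used 6 of the 40 libraries of the series, namely replicates 1, 2 and 4 of each siRNA, which were all polysomal libraries except the replicate 3 pair. That pair, in which the level of CNOT1 opposed the labels, was kept out of the comparison and used only as a check. Input RNA and pooled subpolysomal fractions 1 to 5 of the same experiment (4 libraries for each siRNA and fraction) were set beside the polysomal values. All these cells were transfected with one of the siRNAs and lysed with cycloheximide, which holds ribosomes on the mRNA.

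The Ccr4-Not complex shortens the poly(A) tails of mRNAs. CNOT1 is its scaffold, on which the deadenylases of the Ccr4 and Caf1 families and the other subunits assemble. Adapter proteins, such as the GW182 proteins of the miRNA pathway, Pumilio, and the BTG and TOB proteins, bring it to their target mRNAs. Loss of deadenylation is known to stabilise many short-lived mRNAs, and the complex is also linked to the repression of translation. A level in polysomal RNA therefore reflects both how much of an mRNA a cell holds and which share of it is translated.

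The 8 polysomal libraries held 23011116 to 27255088 counts, the subpolysomal libraries 15914206 to 27306279 and the input libraries 34262154 to 40725601. Levels are given in CPM (counts scaled to a common library size with TMM factors), and are levels per gene, not per length. The 7 markers set for HEK293 all had counts in every library. Their sum was 5987 to 6470 CPM in control and 4447 to 4636 CPM in CNOT1 siRNA libraries. Most of this was NEFM (4177 to 4343 and 2913 to 3144 CPM before TMM scaling), and PAX2 had only 5 to 16 counts. None of the 8 markers of liver, blood or muscle cells exceeded 12 counts in a library. The blood marker CD14, at 5 to 12 counts, lay in the range of PAX2. In bulk RNA, fewer cells of a kind and less RNA per cell cannot be told apart.

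CNOT1 itself (GRCh37, chromosome 16, 58553855 to 58663789) stood at 473, 505 and 482 CPM in control replicates 1, 2 and 4 and at 29.3, 24.2 and 31.8 CPM in CNOT1 siRNA replicates 1, 2 and 4. The groups did not overlap. The fitted log2 fold change was -4.10 (SE 0.13, edgeR FDR 2.8e-16). In input RNA the log2 fold change was -4.08, and in subpolysomal RNA it was -1.79. In replicate 3 the library labelled control held 28.4 CPM and the library labelled CNOT1 siRNA held 633 CPM.

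The replicate 3 pair moved against its labels across the transcriptome. Of the 2925 genes called higher in replicates 1, 2 and 4, 2904 (99.3%) were lower in the library labelled CNOT1 siRNA than in the library labelled control. Of the 2501 genes called lower, 2459 (98.3%) were higher there, whereas the pair was split evenly over all 17115 genes tested, 51.6% of which were lower. Median log2 differences of the pair, as labelled, were -0.60 for the former and 0.62 for the latter genes, against 0.59 and -0.63 in replicates 1, 2 and 4. Across genes the log2 CPM of the library labelled control correlated with those of CNOT1 siRNA replicates 1, 2 and 4 at r = 0.9928 to 0.9951 and with those of the control replicates at r = 0.9791 to 0.9812. No library was relabelled.

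To ask which mRNAs change in polysomes when CNOT1 is depleted, 17115 genes were tested. In polysomal RNA 2925 genes (17.1% of those tested) were higher with CNOT1 siRNA and 2501 (14.6%) were lower at an edgeR FDR below 0.05. Among them 520 rose and 421 fell by at least 1 on the log2 scale. The library values of the groups did not overlap for 2835 of the genes called higher and 2393 of those called lower. Over all 17115 genes tested, called or not, they did not overlap for 8066, so that this separation was not particular to called genes. The replicate numbers paired the samples, but the main fit, which gave all calls above, did not use this pairing. With the replicate as a block and only the 6 polysomal libraries, 4523 genes were higher and 3932 lower. The split between directions depended on the scaling, since RLE factors in place of TMM, which moved the median log2 fold change by -0.0778, gave 2251 higher and 3079 lower.

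Apart from the HSPA1 genes, the 10 largest increases were in genes at about 11 CPM or less in every control library. EGR1, an immediate early transcription factor, rose from 3.73, 4.18 and 6.15 CPM in control replicates 1, 2 and 4 to 32.1, 16.9 and 20.3 CPM, a log2 fold change of 2.30 (SE 0.67, FDR 0.0114). Without CNOT1 siRNA replicate 1 its log2 fold change was 1.99 at an FDR of 0.0505. PVRL4 (NECTIN4), a cell adhesion protein, rose from 6.41, 6.87 and 7.27 CPM to 24, 29.3 and 30.7 CPM (log2 2.03, SE 0.23, FDR 1.31e-06). For both genes the lowest CNOT1 siRNA library lay well above the highest control library. DDN, which encodes dendrin, rose from 6.49, 7.80 and 5.84 CPM to 27.5, 29.7 and 23.4 CPM (log2 2.00, SE 0.18, FDR 7.04e-08). RCOR2, a transcriptional corepressor, and DHRS2, a short-chain dehydrogenase, each rose by a log2 of 1.77, SEMA4C, a semaphorin, by 1.64, and FAM83G by 1.59. C7orf43 (TRAPPC14), a component of a trafficking complex, rose from 10.1, 9.06 and 6.49 CPM to 27.7, 26.7 and 22.6 CPM (log2 1.58, SE 0.18).

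The heat shock genes HSPA1A and HSPA1B also rose. HSPA1A was present at 596, 428 and 258 CPM in the control libraries and at 1469, 1300 and 884 CPM in the CNOT1 siRNA libraries (log2 1.51, SE 0.31, FDR 8.21e-04). HSPA1B was present at 512, 336 and 226 CPM and at 1309, 1139 and 795 CPM (log2 1.59, SE 0.32, FDR 5.97e-04). Both encode HSP70 proteins from near-identical copies, between which the counting could split reads, so that their separate values are uncertain. In both groups replicate 1 was the highest and replicate 4 the lowest library.

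After CNOT1 the largest decrease in this ranking was that of C9orf41 (CARNMT1), a carnosine methyltransferase. It fell from 99.6, 105 and 96.8 CPM to 28.7, 25.6 and 27.3 CPM (log2 -1.88, SE 0.12, FDR 1.17e-09). KLHL2, an adapter of cullin ubiquitin ligases, fell from 27.1, 27.4 and 28.3 CPM to 7.89, 7.45 and 8.24 CPM (log2 -1.81, SE 0.16, FDR 4.94e-08). FAM73A (MIGA1), a mitochondrial fusion factor, fell from 42.2, 43.7 and 48.3 CPM to 16.4, 12.3 and 12.1 CPM (log2 -1.72, SE 0.15, FDR 6.19e-08). In all of these the replicates of a group lay close together. PMAIP1, which encodes the pro-apoptotic protein NOXA, fell from 84.0, 88.2 and 78.3 CPM to 29.5, 20.3 and 27.5 CPM (log2 -1.70, SE 0.13, FDR 1.01e-08). The kinase UHMK1 fell from 201, 185 and 181 CPM to 64.6, 57.0 and 53.6 CPM (log2 -1.70, SE 0.12, FDR 8.41e-09). EIF4EBP2, a 4E-BP that keeps eIF4E from the cap-binding complex, fell from 320, 343 and 328 CPM to 101, 110 and 107 CPM (log2 -1.64, SE 0.20, FDR 3.25e-06). STMN3, ZC3HAV1L, IGFBP5 and FAM101B (RFLNB) followed with log2 fold changes of -1.62, -1.60, -1.55 and -1.54. That the groups did not overlap was a condition for naming the 10 increases and 10 decreases.

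**Figure D1:**
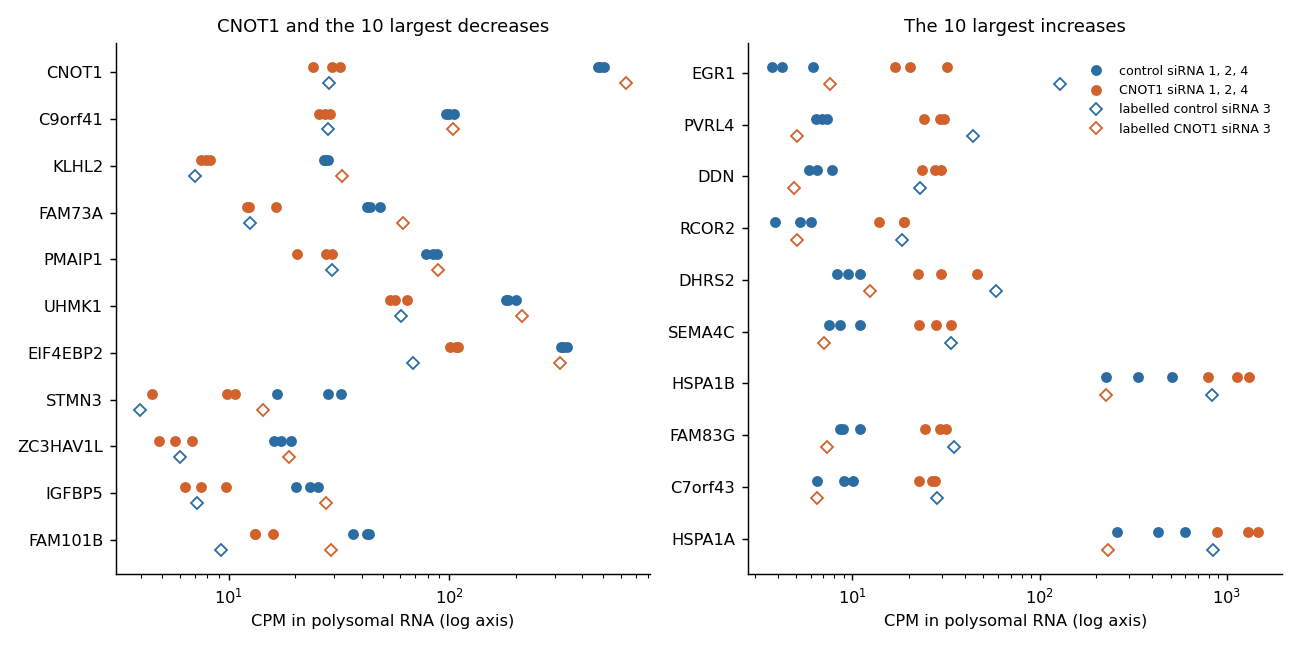
Polysomal level in CPM (log axis) of CNOT1 and the 10 genes with the largest decrease (left) and of the 10 with the largest increase (right), with 1 filled point per library of replicates 1, 2 and 4 and open diamonds for the replicate 3 pair. The 20 genes were ranked among called genes with a mean of at least 10 CPM. Filled points of control and CNOT1 siRNA do not overlap, which was a condition for choosing the 20 genes. The difference of the replicate 3 pair, which the choice did not use, has the opposite sign in all 21.

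The transcripts of several of these strongly decreased genes shared a short sequence in the 3′UTR. Over the 3′UTRs of 13190 tested genes (1 transcript per gene, GENCODE release 44 on GRCh37, transcript strand only), 11598 heptamers that occurred in at least 500 3′UTRs were ranked by their share among genes called lower over their share among genes called higher. GAATATA ranked first with a ratio of 2.08, and the heptamer after it, TGAATAT, which overlaps it, had 1.66. The median ratio of all heptamers was 1.07. GAATATA was present in 24.8% of the 3′UTRs of genes called lower, in 11.9% of those of genes called higher and in 15.6% of all. Because the heptamer was chosen for this contrast after the values were seen, these shares are a description without a test.

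Of the 10 genes with the largest decrease 6 carried GAATATA, and none of the 10 with the largest increase did. The 3′UTRs were 838 to 7081 nt long in the 9 decreases with a matched transcript and 260 to 2570 nt in the increases. Longer 3′UTRs hold more sites, and the part of length in this contrast was not tested. These genes are also among the calls on which the heptamer was chosen. A site of each of the 6, and the single site of CNOT1, is printed here with the heptamer in capitals, 5′ to 3′ on the transcript strand, as 30 bases of GRCh37 that lie wholly within the 3′UTR. They are shown because the letters around the heptamer can be compared between genes.
CNOT1: aaaaacagtggGAATATAggaaagggaacc
KLHL2: tttgattacatGAATATAataaattatgtg
FAM73A: cacacatgcaaGAATATAttacttctaatg
PMAIP1: tttcataattgGAATATActtttcttaaaa
UHMK1: gctttcttgatGAATATAaaaatgttgtct
EIF4EBP2: accctgtttgtGAATATAttttagaaagag
ZC3HAV1L: taacaaattttGAATATAactcctgtctta

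These windows lie at chr16:58554092-58554121 (minus strand) for CNOT1, chr4:166243698-166243727 (plus) for KLHL2, chr1:78341134-78341163 (plus) for FAM73A and chr18:57570946-57570975 (plus) for PMAIP1. Those of UHMK1, EIF4EBP2 and ZC3HAV1L lie at chr1:162496813-162496842 (plus), chr10:72183416-72183445 (plus) and chr7:138710564-138710593 (minus). KLHL2, FAM73A and PMAIP1 carried 2 sites each and the others 1. C9orf41, STMN3 and IGFBP5 carried none, and FAM101B had no coding transcript matched.

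By size of the polysomal change, the share of 3′UTRs with GAATATA was 32.5% (68 of 209) for genes called lower with a log2 fold change below -1, 23.8% (242 of 1017) between -1 and -0.5, 23.9% (173 of 724) between -0.5 and 0, 14.2% (143 of 1007) for genes called higher by less than 0.5 and 10.6% (187 of 1765) at 0.5 or more. These are the calls on which the heptamer was chosen. The median log2 fold change was 0.0932 over the 11137 genes with 0 sites, -0.0205 over the 1616 with 1 site and -0.0994 over the 317 with 2. At 3 or more sites (120 genes) it was -0.0591, so that it did not fall further. Long 3′UTRs hold more sites, with a median length of 1135 nt at 0 and 4451 nt at 2 sites. Within each of 5 length classes the median of genes with a site lay below that of genes without, for example -0.0403 against 0.127 for 3′UTRs of 1000 to under 2000 nt and -0.0217 against 0.0799 for those of 4000 nt or more.

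Other libraries gave the following values for the same classes of 0, 1, 2 and 3 or more sites. The input and subpolysomal libraries shared the fit behind the calls, so that their values are not independent of the ranking. In input RNA the medians were 0.0606, -0.0735, -0.141 and -0.159, and in subpolysomal RNA 0.00872, -0.0509, -0.101 and -0.0984. In the polysomal replicate 3 pair, as labelled, they were -0.126, 0.0545, 0.185 and 0.101, of opposite sign. In the separate experiment of the series with siRNAs against TNRC6A and TNRC6B, where 2 libraries of each siRNA exist, they were -0.0165, 0.0184, 0.0442 and 0.0194, with no decrease at more sites. The sequence of the CNOT1 siRNA is not given in the sources used here, and whether its own letters have a part in the pattern was not tested.

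**Figure D2:**
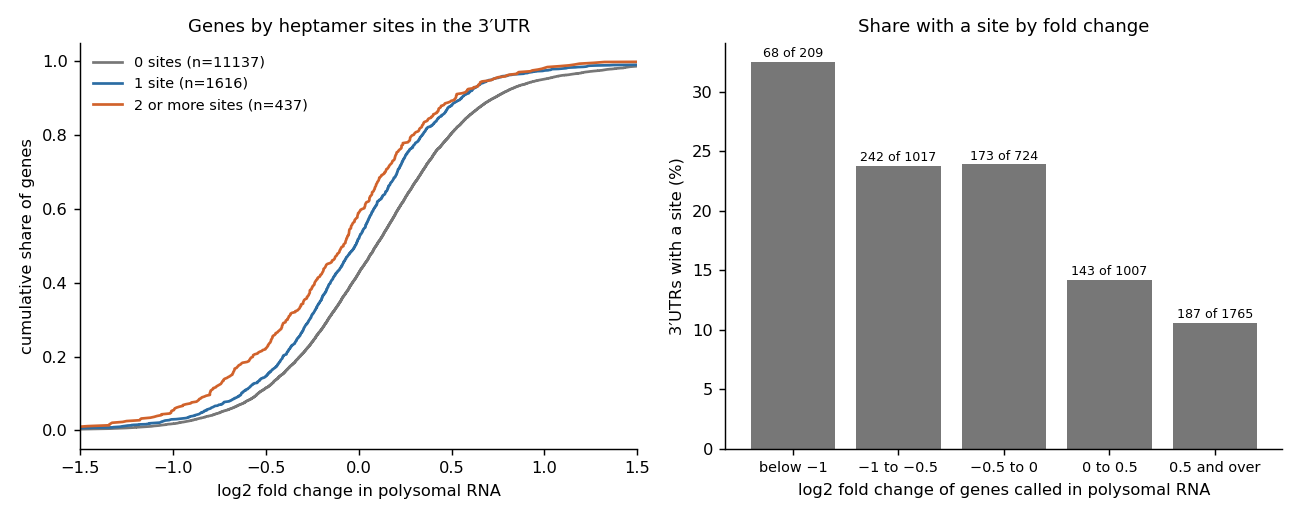
Left, cumulative share of genes by log2 fold change in polysomal RNA for genes with 0, 1, or 2 or more GAATATA sites in the 3′UTR. Right, share of 3′UTRs with a site (%) among called genes by their log2 fold change, which goes from 32.5% below -1 to 10.6% at 0.5 and over.

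Motifs of known destabilising factors were then searched. The Pumilio motif TGTANATA was present in 37.7% of the 3′UTRs of genes called higher, 28.9% of those called lower and 30.9% of all. The AU-rich element core TATTTAT, to which the TTP family binds, was present in 43.5%, 36.7% and 36.7%. The median polysomal log2 fold change was 0.0481 for genes without a Pumilio motif, 0.113 with 1, 0.160 with 2 and 0.165 with 3 or more. For the AU-rich core these medians were 0.0473, 0.121, 0.113 and 0.0829, without a steady rise. Sites for the let-7 seed (CTACCTC) were present in 11.4% of genes called higher, 13.0% of those called lower and 11.3% of all, and sites for the miR-17 seed (GCACTTT) in 27.0%, 27.3% and 25.2%. The medians for 0, 1, 2 and 3 or more sites were 0.0725, 0.065, 0.0718 and -0.184 (33 genes) for let-7. For miR-17 they were 0.0689, 0.0907, 0.0702 and 0.0289. All motifs and sites were searched on the transcript strand only and no test was made. The Pumilio motif was present in 3 of the 10 genes with the largest increase, a share like that of all 3′UTRs, and in 1 of the 10 with the largest decrease. The 3 are printed, with the motif in capitals in a window of 30 bases, to show the letters searched for.
EGR1: gttaaccttttTGTAAATActgcttgaccg
PVRL4: ggcctgctgcaTGTACATAttttctgtaaa
SEMA4C: tcgggcagcgaTGTACATAtggaggtgggg

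They lie at chr5:137804410-137804439 (plus) for EGR1, chr1:161041755-161041784 (minus) for PVRL4 and chr2:97525855-97525884 (minus) for SEMA4C on GRCh37. PVRL4 carried 4 such motifs in its 3′UTR, SEMA4C 2 and EGR1 1.

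Genes called higher and lower also differed in coding length. Of 13462 protein-coding genes tested, 13357 (99.2%) had a coding transcript, and the other 3653 genes tested were not annotated as protein-coding. The median coding length was 1708 nt for genes called higher, 906 nt for genes called lower and 1443 nt for genes not called. Among the 257 genes with a coding length under 300 nt, 130 (50.6%) were lower and 7 (2.72%) higher in polysomes. Among the 2362 genes of 2400 to under 4800 nt, 184 (7.79%) were lower and 654 (27.7%) higher. Across genes, which are not independent and share libraries, the rank correlation of coding length with the log2 fold change was 0.26 in polysomal, 0.19 in input and near 0 in subpolysomal RNA. Medians for the shortest class were -0.51, -0.42 and 0.03 in these fractions.

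**Figure D3:**
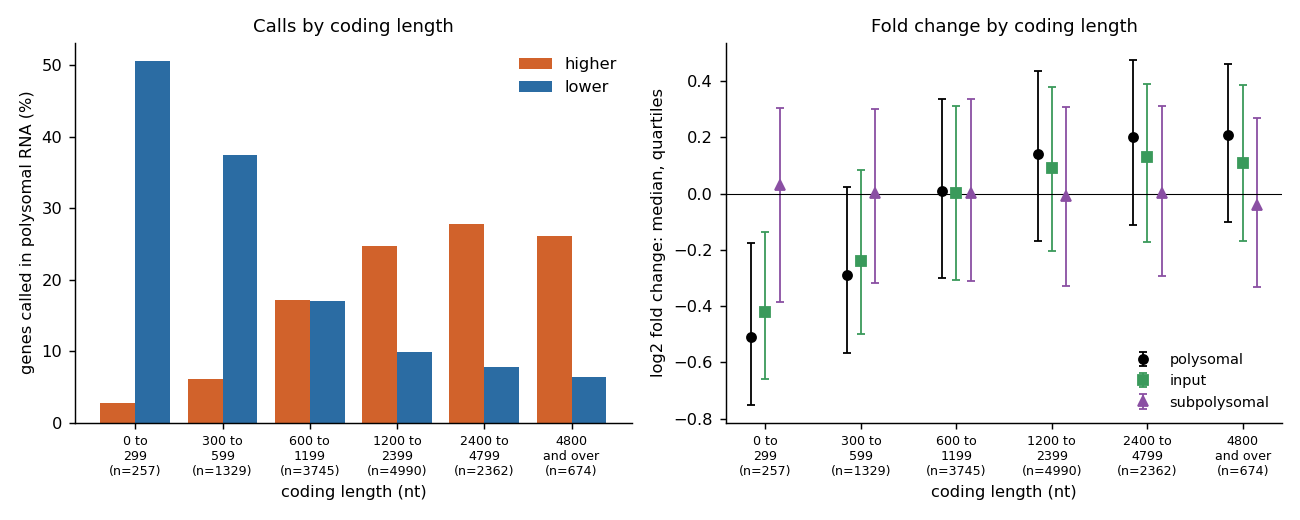
Left, share of genes called higher or lower in polysomal RNA (%) by coding length in nt. Right, median log2 fold change by coding length in polysomal, input and subpolysomal RNA, with bars for the quartiles; the median goes from -0.51 to 0.21 in polysomal RNA and stays between -0.04 and 0.03 in subpolysomal RNA.

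Counts of called list members are to be read beside the shares over all genes tested, 17.1% higher and 14.6% lower. Subunits of Ccr4-Not moved in both directions. Of the 12 measured, CNOT1 included, 6 were higher and 3 lower in polysomes, the latter being CNOT1 itself, CNOT6 and CNOT7. CNOT6, a deadenylase of the Ccr4 family, fell from 198, 215 and 198 CPM to 121, 106 and 112 CPM (log2 -0.85, SE 0.11, FDR 7.05e-06). Its paralogue CNOT6L rose from 68.9, 72.0 and 72.9 CPM to 127, 110 and 113 CPM (log2 0.71, SE 0.10, FDR 1.25e-05). The Caf1 deadenylase CNOT7 fell from 186, 212 and 197 CPM to 115, 119 and 124 CPM (log2 -0.73, SE 0.13, FDR 1.93e-04), and its paralogue CNOT8 changed by 0.33 (FDR 0.0369). CNOT3, a NOT-box subunit, rose from 131, 118 and 96.8 CPM to 179, 199 and 149 CPM (log2 0.61), and CNOT2, its partner, by 0.41. CNOT4, a ubiquitin ligase, rose by 0.43 and RQCD1 (CNOT9), which contacts the GW182 proteins, by 0.23. CNOT10, CNOT11 and TNKS1BP1 had log2 fold changes of 0.28, 0.05 and 0.46 at FDRs of 0.132, 0.832 and 0.135. With the replicate as a block and only the polysomal libraries CNOT10 and TNKS1BP1 were called higher (FDR 0.00183 and 9.13e-07), as they were with only these libraries and no block (0.0314 and 0.0343). The calls of CNOT8 and RQCD1 were lost with RLE factors (FDR 0.135 and 0.185). That of CNOT8 was also lost without any one library but control replicate 2, that of RQCD1 without control replicate 1 or 4 or CNOT1 siRNA replicate 2 or 4 (FDR 0.0725 to 0.247), and that of CNOT2 without control replicate 1. The number higher fell to 3 without control replicate 1, and to 4 without control replicate 4, CNOT1 siRNA replicate 2 or CNOT1 siRNA replicate 4.

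Among proteins that bring Ccr4-Not to mRNAs, 10 of 26 tested (of 28 listed) were higher and 6 lower. The antiproliferative BTG and TOB proteins, which bind CNOT7 and CNOT8, were among those that rose. BTG2 rose from 55.0, 54.6 and 44 CPM to 116, 118 and 113 CPM (log2 1.18, SE 0.13, FDR 1.09e-06), TOB2 by 1.20 (SE 0.13) and TOB1 by 1.02 (SE 0.15). The groups were apart in all of them. CPEB2, which binds cytoplasmic polyadenylation elements, fell by 0.76 on the log2 scale. The number lower was 3 without control replicate 1, control replicate 2 or CNOT1 siRNA replicate 4 (each left out in turn) against 6 with all libraries. Of the 9 other deadenylases, 2 were higher and 0 lower, with CCRN4L (nocturnin) rising from 20.3, 22.9 and 23.5 CPM to 50.5, 40.3 and 47.3 CPM (log2 1.05, SE 0.12, FDR 1.08e-06) and PDE12 by 0.45. With the block, or without CNOT1 siRNA replicate 4, 1 of them was lower.

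The miRNA effector proteins split evenly, with 3 of 7 higher and 3 lower. TNRC6A, a GW182 protein, rose from 161, 151 and 159 CPM to 291, 266 and 255 CPM (log2 0.79, SE 0.10, FDR 3.72e-06), whereas TNRC6C fell by 0.48 and AGO4, an Argonaute, by 0.79 on the log2 scale. AGO2 had a log2 fold change of 0.36 (FDR 0.0313) with overlapping libraries. Its call was lost with RLE factors (FDR 0.0818), DESeq2 (0.0736), no count filter (0.163) and only the compared libraries (0.0713). The AGO2 call was also lost without any one of control replicates 1, 2 and 4 or CNOT1 siRNA replicate 1 (FDR 0.059 to 0.289). The number higher was 1 without control replicate 1, control replicate 2 or CNOT1 siRNA replicate 1. The number lower was 2 without control replicate 1 or 4, or without CNOT1 siRNA replicate 2 or 4. Of 20 decapping and P-body genes 5 were higher and 5 lower. The decapping enzyme DCP2 fell from 217, 226 and 204 CPM to 133, 115 and 108 CPM (log2 -0.86, SE 0.12, FDR 9.94e-06). The LSM ring subunits LSM4, LSM5 and LSM3 fell by 0.96, 0.62 and 0.59 on the log2 scale.

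Cytosolic ribosomal protein mRNAs were lower in polysomes as a group. Of 85 tested (of 91 listed), 53 (62.4%) were lower and 0 higher, with a median log2 fold change of -0.40 against 0.004 over all genes. Genes with short coding regions were often lower (50.6% of all those under 300 nt, 37.4% at 300 to under 600 nt). The part of coding length in this list was not tested. The summed level of the list was 76452 to 83226 CPM in the control and 55568 to 65778 CPM in the CNOT1 siRNA libraries. RPL22 fell from 728, 889 and 808 CPM to 447, 501 and 545 CPM (log2 -0.70, SE 0.13, FDR 2.9e-04), and RPL38 and RPL39 fell by 0.63 and 0.64 on the log2 scale. Ribosomal protein genes have many processed pseudogenes with which they can share reads. The number lower was 25 without CNOT1 siRNA replicate 1 and 31 without control replicate 2. Of 15 other mRNAs with a 5′ terminal oligopyrimidine tract, 3 were lower and 0 higher. These were EEF1A1, EEF1B2 and HNRNPA1 (log2 -0.42, -0.37 and -0.38), and none of the list was called without control replicate 2 or without CNOT1 siRNA replicate 1. The call of EEF1A1 (FDR 0.0491) was lost without any one library but control replicate 1.

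mRNAs for the nuclear-encoded subunits of the respiratory chain formed the other large group that fell. Of 75 tested (of 92 listed), 47 (62.7%) were lower and 2 higher, with a median of -0.58. Of all genes with a coding length under 300 nt 50.6% were lower, and of those of 300 to under 600 nt 37.4%. The part of coding length in this list was not tested. The summed level was 12022 to 13696 CPM with control and 8602 to 9934 CPM with CNOT1 siRNA. ATP5L, a subunit of ATP synthase, fell from 216, 262 and 221 CPM to 108, 136 and 119 CPM (log2 -0.95, SE 0.11, FDR 1.09e-06). ATP5I and ATP5E fell by 0.96 and 0.95 on the log2 scale. COX6C, of cytochrome c oxidase, had a log2 fold change of -0.93 (SE 0.15, FDR 5.72e-05). None was higher without control replicate 4 or CNOT1 siRNA replicate 2, and 1 was higher without any other library. Mitochondrial ribosomal proteins, of 76 tested, were higher in 10 and lower in 10 (13.2% each), with a median near 0. These shares were near those of all genes (17.1% and 14.6%). With the replicate as a block, 17 were higher and 12 lower. The number higher was 5 without control replicate 4 or CNOT1 siRNA replicate 2 and 6 without control replicate 1 or CNOT1 siRNA replicate 4.

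Hosts of small nucleolar RNAs, whose spliced transcripts are known targets of nonsense-mediated decay, were lower in 13 of 16 tested and higher in 0, with a median of -0.81. ZFAS1 fell from 30.3, 33.6 and 40.6 CPM to 12.1, 13.4 and 15.4 CPM (log2 -1.35, SE 0.19, FDR 1.67e-05), and SNHG5 and SNHG15 fell by 0.91 and 0.88 on the log2 scale. HOX genes were lower in 18 of 35 tested and higher in 3. Only 6 of the called HOX genes had a mean of at least 10 CPM. HOXB9 fell from 69.4, 73.9 and 64.2 CPM to 23.5, 28.9 and 27.1 CPM (log2 -1.38, SE 0.12, FDR 4.22e-08), and HOXB6 by 1.28 on the log2 scale. The number of HOX genes higher was 1 without any one of control replicates 1, 2 and 4 or CNOT1 siRNA replicate 2. Selenoprotein and oxidative stress genes were lower in 9 of 14 and higher in 1. SOD2, the mitochondrial superoxide dismutase, fell from 352, 398 and 379 CPM to 208, 209 and 205 CPM (log2 -0.86, SE 0.10, FDR 3.01e-06), the selenoenzyme GPX4 fell by 1.01 and thioredoxin (TXN) by 0.79 on the log2 scale. Of 461 zinc finger genes tested (of 554 listed), 93 (20.2%) were lower and 39 (8.46%) higher, against 14.6% and 17.1% of all genes. ZNF440 fell by 1.35 and ZNF678 by 1.07 on the log2 scale, whereas ZNF804A rose from 13.7, 16.0 and 15 CPM to 40, 41.5 and 38.6 CPM (log2 1.43, SE 0.12, FDR 5.26e-08). Without CNOT1 siRNA replicate 2 the number of zinc finger genes lower was 59.

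Immediate early genes, whose mRNAs are short-lived, were higher in 12 of 32 tested and lower in 3. MYC rose from 1356, 1226 and 998 CPM to 2446, 2159 and 1658 CPM (log2 0.81, SE 0.13, FDR 9.47e-05). JUN had a log2 fold change of 0.90 (FDR 0.0143) with overlapping libraries, whose call was lost without control replicate 4 or CNOT1 siRNA replicate 1 (FDR 0.086 and 0.149). The phosphatase gene DUSP4 fell by 0.91 on the log2 scale. The number higher was 7 without CNOT1 siRNA replicate 1, and 18 with the replicate as a block. Of 28 genes of the integrated stress and unfolded protein responses, 9 were higher and 2 lower, with DNAJB9, an ER chaperone, at log2 1.08 (SE 0.19), CEBPB at 1.16 (SE 0.23) and SESN2 at 0.83 (SE 0.21). The number higher was 5 without control replicate 1 or CNOT1 siRNA replicate 4, and 4 genes were lower with the block. The 2 lower genes were not called without control replicate 2 or 4 or CNOT1 siRNA replicate 1 or 2. Mitotic genes were higher in 8 of 24 and lower in 1. KIF23, a kinesin of cytokinesis, rose from 130, 146 and 145 CPM to 234, 223 and 225 CPM (log2 0.70, SE 0.09, FDR 1.07e-05). The 1 lower mitotic gene was not called without control replicate 2 or 4 or CNOT1 siRNA replicate 1 or 2, and 2 were lower without control replicate 1 or with the block. The number of mitotic genes higher was 2 without control replicate 1, 3 without CNOT1 siRNA replicate 2 and 4 without control replicate 4 or CNOT1 siRNA replicate 4.

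Several lists moved without a common direction. Of 18 p53 targets 6 were higher and 5 lower, with TP53INP1 falling from 16.1, 16.8 and 18.2 CPM to 5.92, 7.09 and 7.96 CPM (log2 -1.28, SE 0.15, FDR 1.48e-06). Of 25 genes of cholesterol synthesis and uptake 5 were higher and 7 lower. HMGCS1, an enzyme of the pathway, fell from 368, 440 and 438 CPM to 204, 227 and 243 CPM (log2 -0.88, SE 0.12). The number of cholesterol genes higher was 3 without control replicate 2 or CNOT1 siRNA replicate 1. Of 12 antigen presentation genes 4 were lower and 1 higher, with HLA-B, HLA-C and B2M falling by 0.88, 0.82 and 0.67 on the log2 scale. HLA genes are polymorphic and alike in sequence, so that their reads may be shared. Of 17 let-7 target and oncofetal genes 7 were higher and 3 lower, with TRIM71 at log2 0.88 and HMGA2 at -0.53.

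The other lists held fewer changes, some at shares near those of all genes (17.1% higher and 14.6% lower). Of 20 cap-binding and poly(A)-binding factors 2 were higher and 2 lower. EIF4E3, a paralogue of the cap-binding protein eIF4E, fell from 17.1, 16.9 and 19.4 CPM to 6.84, 8.06 and 9.93 CPM (log2 -1.10, SE 0.14, FDR 4.19e-06), and EIF4EBP2 was the other that fell. EIF4A3 and EIF4G1 had 0.37 and 0.34. Neither was called with RLE factors or without control replicate 4 or CNOT1 siRNA replicate 2, and 1 was called without control replicate 1 or 2 or CNOT1 siRNA replicate 1. Of 24 genes of replication licensing and DNA synthesis 6 were lower and 2 higher. TYMS, an enzyme of nucleotide synthesis, fell by 0.56 on the log2 scale. None was higher without control replicate 1, and 1 without control replicate 4 or CNOT1 siRNA replicate 1 or 2. Of 18 G1 cyclins and CDK inhibitors 3 (16.7%) were higher and 4 (22.2%) lower. CDKN1B, which encodes p27, had 0.47 and CDKN2A had -0.65. Of 17 tubulins 4 were higher and 0 lower, with TUBA1C at 0.42. Only 2 of the 4 had a mean of at least 10 CPM.

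Of 21 basement membrane and matrix genes 4 were lower and 1 higher. COL4A6, a type IV collagen, fell by 0.78 on the log2 scale, and LAMB1, a laminin, had 0.57 with overlapping libraries. With the block 8 were lower, and without CNOT1 siRNA replicate 2, 2 were higher. Of 15 nonsense-mediated decay factors 4 (26.7%) were lower and 2 (13.3%) higher. RBM8A, of the exon junction complex, fell from 455, 512 and 436 CPM to 260, 292 and 270 CPM (log2 -0.77, SE 0.09, FDR 1.81e-06). Only 2 of these factors were lower without CNOT1 siRNA replicate 4, and 1 was higher without control replicate 2 or CNOT1 siRNA replicate 1 or 2. Of 17 interferon and NF-kB targets 4 were higher and 0 lower, and 2 were higher without control replicate 4 or CNOT1 siRNA replicate 1. Only 1 of the 4 had a mean of at least 10 CPM. Replication-dependent histones, of which 28 of 89 were tested after the filter on low counts, were higher in 1 and lower in 2. Of these called histones 0 had a mean of at least 10 CPM. Of 13 mitochondrially encoded mRNAs 0 were called in polysomal RNA. Their summed level there was only 15.7 to 19.5 CPM in control and 14.2 to 17.4 CPM in CNOT1 siRNA libraries. Of the same 13 mRNAs, 8 were lower in input and 9 in subpolysomal RNA, and 0 were higher in either. Of 6 nuclear RNAs 1 was lower in polysomal RNA (FTX, -0.67), or 2 with the block.

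**Figure D4:**
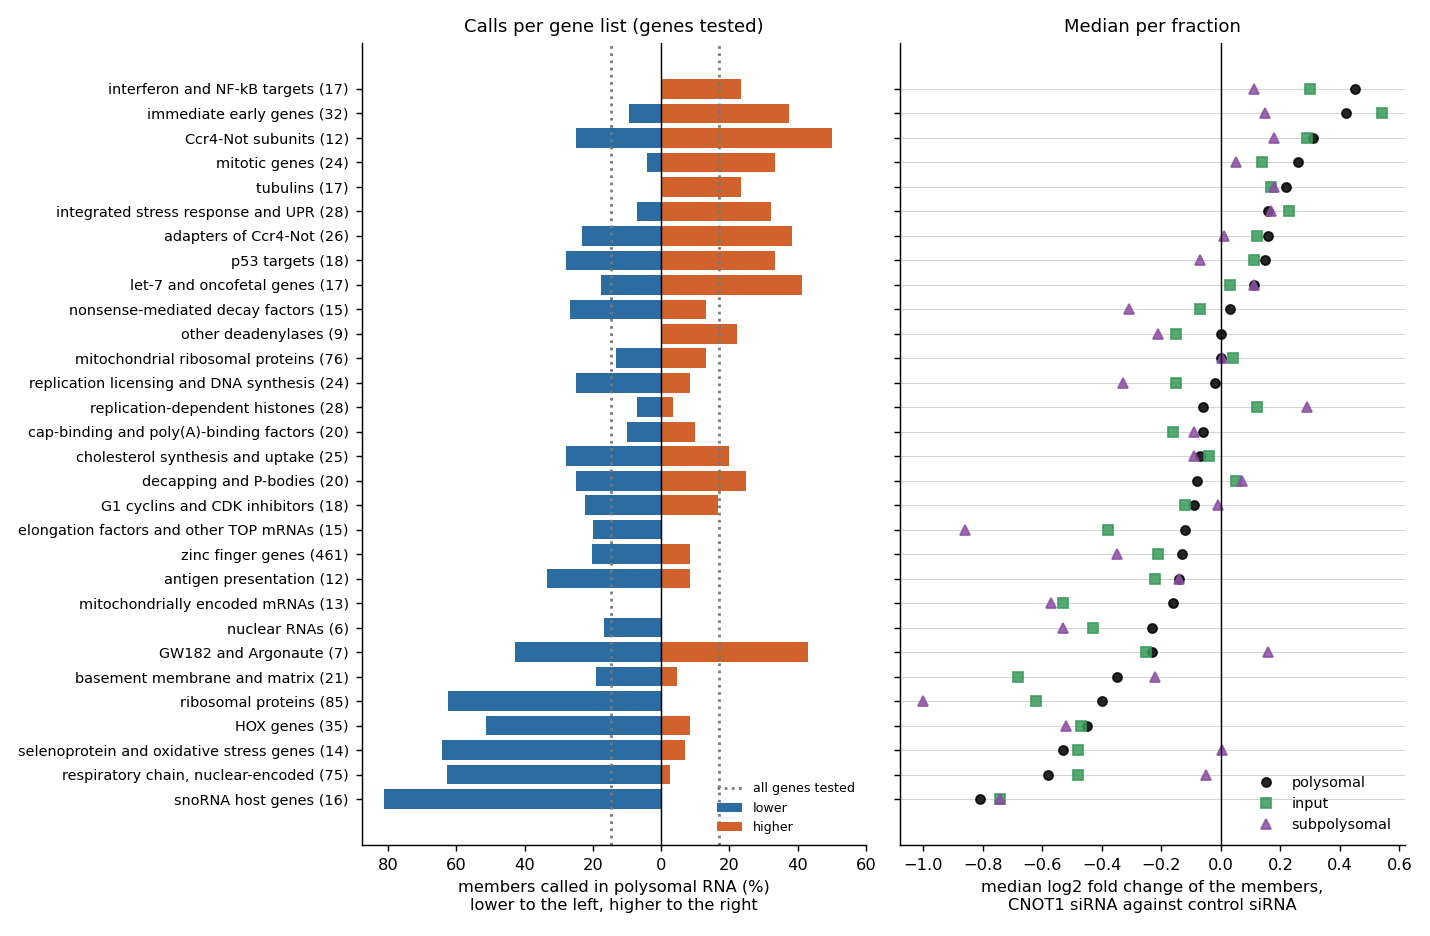
Left, share of tested members called lower (to the left) or higher (to the right) in polysomal RNA for each gene list, with dotted lines at 14.6% and 17.1%, the shares over all genes tested. Right, median log2 fold change of each list in polysomal, input and subpolysomal RNA; ribosomal proteins lie at -0.40, -0.62 and -1.0 and the respiratory chain at -0.58, -0.48 and -0.05.

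To ask whether the change in polysomes differed from that in the cell, the CNOT1 siRNA effect in polysomal RNA was tested against that in input RNA. In input RNA 3346 genes (19.6%) were higher and 3611 (21.1%) lower. The test of the difference between polysomal and input effects called 0 genes above and 0 below with edgeR and 0 with DESeq2. In the edgeR fit 173 and 122 genes passed an unadjusted p of 0.05. These are fewer than the share of 0.05 of all 17115 genes that would pass if none differed. The test was thus conservative, and its 0 calls do not show that the effects were equal. The median SE of the difference was 0.227 on the log2 scale, so that small differences were not detectable in these libraries. Of the genes called in polysomal RNA, 2552 of those higher (87.2%) were also higher in input and 2245 of those lower (89.8%) also lower, and 0 were called in opposite directions. The paper states that the input RNA came from an aliquot of the lysate that was fractionated, so the fractions of a replicate share cells. The main fit treated their libraries as independent. With the replicate as a block 0 genes were called above and 0 below.

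Against subpolysomal RNA the effects did differ. In subpolysomal RNA 3030 genes (17.7%) were higher and 4166 (24.3%) lower with CNOT1 siRNA. The effect was higher in polysomal than in subpolysomal RNA for 1709 genes (9.99%) and lower for 1285 (7.51%). With only the libraries of these fractions in the fit, the numbers were 919 and 667. These fits also left out the pairing of fractions from the same lysate, and with the replicate as a block over all 22 libraries the numbers were 2212 and 1693. Of the genes called higher in polysomes 1288 (44%) were also higher and 236 were lower in subpolysomal RNA, and of those called lower 1324 (52.9%) were also lower and 148 were higher.

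Ribosomal protein mRNAs fell more in subpolysomal than in polysomal RNA. Their median log2 fold change was -1.0 in subpolysomal, -0.62 in input and -0.40 in polysomal RNA, and for 51 of 85 the polysomal effect was above the subpolysomal one, against 2 below. RPL22 had -1.32 in subpolysomal and -0.70 in polysomal RNA, a difference of 0.62 (FDR 0.0142). The elongation factor EEF1A1 had -1.30 and -0.42, a difference of 0.88 (FDR 0.00531), and 9 of the 15 other mRNAs with a terminal oligopyrimidine tract were above and 0 below. Respiratory chain mRNAs went the other way, with a median of -0.05 in subpolysomal and -0.58 in polysomal RNA, and with 31 of 75 below and 3 above. COX6C had 0.27 in subpolysomal (FDR 0.0881) and -0.93 in polysomal RNA, a difference of -1.20 (FDR 2.12e-04). By coding length, 36.2% of genes under 300 nt were below and 1.17% above, against 4.57% and 14.8% at 2400 to under 4800 nt. The part of coding length in the values of these lists was not tested.

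Of the named genes, C7orf43 rose in polysomal RNA (1.58) and had a log2 fold change of 0.11 in subpolysomal RNA (FDR 0.582), a difference of 1.47 (SE 0.23, FDR 1.62e-04). BTG2 likewise had 1.18 and 0.02, a difference of 1.16 (FDR 1.14e-04), and CCRN4L 1.05 and -0.20, a difference of 1.25 (FDR 1.85e-05). EIF4EBP2 fell by 1.64 in polysomal and by 0.45 in subpolysomal RNA, a difference of -1.19 (SE 0.26, FDR 0.00262), and PMAIP1 and UHMK1 had differences of -1.12 and -1.04. CNOT1 itself had a difference of -2.31 (SE 0.15, FDR 3.26e-09). PVRL4, DDN and RCOR2 rose in both fractions, with differences of -0.05, -0.24 and 0.50 at FDRs of 0.946, 0.531 and 0.33.

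The RNA immunoprecipitation (IP) libraries of the series, made from HEK293 cells without siRNA, give the mRNAs that associate with 3 helicases. In the IP of DDX6, a helicase that binds CNOT1 and acts in repression and decapping, 3965 genes (22.7% of 17474 tested) were higher than in total RNA. Of the 3845 of these also tested in polysomes, 925 (24.1%) were lower and 536 (13.9%) higher with CNOT1 siRNA, against 15.1% and 17.5% of the 16473 genes tested in both. Of the genes lower in the DDX6 IP (23.3% of those tested), 10.9% were lower and 20.2% higher in polysomes. In the IP of eIF4A2, another helicase, 4283 genes (24.5%) were higher than in total RNA, and of the 4066 tested in polysomes 18.2% were lower and 15.7% higher. Of the genes lower in the eIF4A2 IP (25.8%), 15.2% were lower and 20.2% higher. In the IP of its paralogue eIF4A1, a subunit of the cap-binding complex, 4555 genes (26.1%) were higher than in total RNA, and of the 4359 tested in polysomes 20.4% were lower and 14.6% higher. Of the genes lower in the eIF4A1 IP (26.5%), 12.6% were lower and 21.0% higher. Genes higher in each of the 3 IPs were thus more often lower and less often higher in polysomes than all genes tested in both. Genes lower in an IP were less often lower in polysomes for DDX6 and eIF4A1, but not for eIF4A2 (15.2% against 15.1%). The paper reports a large overlap of the mRNAs bound by eIF4A1 and eIF4A2, so the IPs are not separate observations. Differences between them were not tested. The paper itself compared polysomal with subpolysomal changes, for mRNAs bound exclusively by each protein. It reports that after CNOT1 knockdown eIF4A2-only mRNAs shifted into polysomes and DDX6-only mRNAs into the subpolysomal fraction. The groups here overlap, and the shares rest on polysomal levels alone. Polysomal minus subpolysomal medians for genes higher in the IP were -0.0357 (eIF4A2), -0.123 (eIF4A1) and -0.196 (DDX6), against 0.0662 over all. The median coding length was 1086 nt for genes higher in the DDX6 IP, 1389 nt for those higher in the eIF4A2 IP and 1230 nt for those higher in the eIF4A1 IP, and the part of length in these shares was not tested.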

How the data were processed

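Each deposited file holds raw read counts of a single library over 55765 gene symbols. Libraries were prepared with a TruSeq stranded kit. Reads were aligned by the authors with TopHat2 (hg19) and counted with HTSeq. The strand option is not given in the sources used here. A deposited table of the authors' own comparisons (log2 fold changes, CPM and p-values) was not used.

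Quasi-likelihood models (edgeR 4.0.16, R 4.3.3) were fitted to 22 gradient libraries in 6 groups, leaving out the polysomal replicate 3 pair. filterByExpr left 17115 genes, scaled with TMM factors. Quasi-likelihood F-tests were two-sided, with Benjamini-Hochberg FDR over all genes. Residual degrees of freedom were 16. Tests on simulated counts preceded the fit. CPM values of the replicate 3 pair come from the scaling of all 24 gradient libraries, with a pseudocount of 0.5 CPM for log2 differences. Same-numbered polysomal libraries deviated together (r = 0.197, 0.192 and 0.379 across genes for replicates 1, 2 and 4). The numbers were taken as pairs only in the alternative fits with a replicate block. The main fit had no block, so that its SEs and FDRs are unpaired. The p-values measure only the spread between these libraries, which may be technical. Polysomal libraries of the same siRNA were not duplicates of each other, and other pairs were not checked.

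Positions and transcripts came from GENCODE release 44 on GRCh37. Of the symbols, 33529 matched directly and 1926 by an older synonym. Named were CNOT1, the 10 largest increases and decreases among called genes with at least 10 CPM and no overlap of libraries, all Ccr4-Not subunits, and up to 4 called members at 10 CPM or more of each list. The comparison and the gene lists were chosen with earlier results of these data known. Alternatives were DESeq2 1.42.0, RLE factors, no count filter, a replicate block, only the compared libraries, the replicate 3 pair included, and each polysomal library left out in turn. A few list members that this rule names are not reported here.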

Additional observations from a re-analysis of the deposited data

Results flagged for a closer look

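With the replicate 3 pair put back under its labels, 23 of 42 groups of 4 polysomal libraries held a sample far from the others by Dixon's criterion, and the sample was from replicate 3 in all 23. Chance meets the criterion in about 1 of 20 groups, a rate that does not apply to these genes, since they were chosen for their change in replicates 1, 2 and 4 and CNOT1 was the reason for leaving the pair out. CNOT1 was at 28.4 CPM in the library labelled control and at 633 CPM in the library labelled CNOT1 siRNA. The library labelled control also stood apart at 128 CPM for EGR1, 44.3 for PVRL4, 22.9 for DDN, 18.4 for RCOR2, 58.4 for DHRS2, 33.8 for SEMA4C, 34.9 for FAM83G and 28.2 for C7orf43. It did so at 28.1 CPM for C9orf41, 6.99 for KLHL2, 29.4 for PMAIP1, 60.4 for UHMK1 and 68.6 for EIF4EBP2. The library labelled CNOT1 siRNA stood apart at 104 CPM for C9orf41, 32.6 for KLHL2, 61.7 for FAM73A, 89.1 for PMAIP1, 214 for UHMK1, 317 for EIF4EBP2, 18.8 for ZC3HAV1L and 27.5 for IGFBP5. EGR1 at 128 CPM exceeded all other polysomal libraries.

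For 8 of the 20 genes with the largest changes the CNOT1 siRNA effect differed between polysomal and subpolysomal RNA in the test of the difference itself. The log2 difference was 1.47 for C7orf43, -0.99 for C9orf41, -0.70 for FAM73A, -1.12 for PMAIP1, -1.04 for UHMK1, -1.19 for EIF4EBP2, -0.84 for ZC3HAV1L and -1.14 for FAM101B.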

How the results depend on the processing

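With the replicate 3 pair included as labelled, 0 genes were higher and 0 lower in polysomal RNA, and 547 and 402 had a polysomal effect above or below the subpolysomal one. EGR1 then had a log2 fold change of -0.89. With the replicate block and only the compared libraries, 4523 and 3932 genes were higher and lower in polysomal RNA and 5246 were higher in input. With only the compared libraries, 919 and 667 genes had a polysomal effect above or below the subpolysomal one, and 1986 and 2408 were higher and lower in subpolysomal RNA. Without a count filter the former was 917. Leaving out each polysomal library gave 2146 to 2625 higher and 1750 to 2223 lower genes in polysomal RNA, 0 to 0 for polysomal against input effects, and 1197 to 1504 above and 889 to 1204 below for polysomal against subpolysomal effects. The sign of CNOT11, not called, turned with DESeq2 (-0.03), RLE factors (-0.03), no count filter (-0.004) and without control replicate 1, with a range of -0.06 to 0.11 when each library was left out. DESeq2 gave 2305 higher and 3164 lower genes in polysomal RNA. The replicate block over all 22 libraries gave 3408 higher and 2904 lower, and none of the genes named lost its call with it.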
